A study of Mus musculus with 6 samples.

Results

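The B cell antigen receptor is membrane immunoglobulin bound to a pair of signalling chains, and 9 genes of this complex and its first signalling steps are described here in mouse bone marrow. They encode the signalling chains (Cd79a, Cd79b), surface proteins of B cells (Ms4a1, Cd22), kinases (Blk, Syk, Btk), an adaptor (Blnk) and an Fc receptor-like protein (Fcrla). The genes were chosen by name, with earlier results of these data known. All 9 were found among the 54532 gene identifiers, each symbol with 1 identifier. All 9 were among the 14608 genes that passed the filter on low counts.

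RNA came from LSK cells, the lineage-negative, Sca-1-positive and c-Kit-positive gate of bone marrow that holds stem cells and early progenitors. The 3 floxed libraries had the genotype Phf6fl-R274X/Y, that is a male with a floxed R274X allele of the X-linked gene Phf6 and no Cre. The other 3 libraries had the genotype Vav1-Cre; Phf6fl-R274X/Y, so the same allele was combined with a Cre driven by Vav1 regulatory sequence, which is active in blood cells and in part of the endothelium. The study's title asks after the self-renewal of blood stem cells with this mutation, a premature stop codon. Cre was present in all libraries of one group and in none of the other, so its effect and that of the mutation cannot be told apart. Age, strain, batch and the number of animals are not given in the labels, so the spread behind each p-value is that of 3 libraries a group and can be technical.

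Antigen binding brings receptors together, and the kinases LYN, BLK and FYN of the SRC family then phosphorylate tyrosine motifs (ITAMs) in the tails of CD79A and CD79B. SYK docks on these motifs, and BTK and the adaptor BLNK join it to activate phospholipase C gamma and calcium release. CD22 carries inhibitory motifs that dampen the signal, and MS4A1 is the B cell surface protein CD20. In bone marrow these genes come on in steps as progenitors commit to the B lineage, while Syk and Btk are also used by myeloid cells and earlier progenitors. The lineage gate should remove cells with mature B cell surface proteins.

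The libraries held 15406314 to 18106065 counts. Phf6 had 600, 552 and 623 counts in the floxed and 131, 155 and 124 counts in the Vav1-Cre libraries. It measured 31.6 ± 1.98 CPM (counts scaled to a common library size with TMM factors) in the floxed and 9.01 ± 1.08 CPM in the Vav1-Cre libraries (SD, n = 3 each) and passed with an edgeR adjusted p of 6.67e-06. Of 8 gate and stem cell genes tested as markers, 7 were lower in the Vav1-Cre libraries, Kit (c-Kit) among them, and Ly6a (Sca-1) was higher. Over all tested genes, 7.89% were called lower and 10.1% higher. Immunoglobulin genes took 0.649%, 0.293% and 1.18% of counts in the floxed libraries and 6.85%, 7.95% and 4.45% in the Vav1-Cre libraries. Cd79a and Cd79b were detected in every library, the floxed controls included. In bulk RNA, more cells of a type and more RNA per cell cannot be told apart.

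Of the 9 genes, 5 rose in the Vav1-Cre libraries (Cd79b, Ms4a1, Cd22, Blk and Fcrla) and none fell. Across all tested genes 10.1% were called higher and 7.89% lower. The median log2 fold change was 1.78 over the 9 genes and -0.02 over all tested genes. Groups did not overlap for 8 of the 9 genes, each higher in Vav1-Cre, against 18.9% of all tested genes with this pattern. Syk was the gene whose groups overlapped. Because the genes were chosen with earlier results of these data known, their counts beside these shares are a description. Leaving out 1 library at a time gave 2 to 5 called genes. The number was 2 without floxed 2, 2 without Vav1-Cre 1 and 3 without Vav1-Cre 2. DESeq2 called 7 of the 9 higher, where its background was 10.3% of genes. On log2(FPKM + 1), limma also called 7 among genes with a mean FPKM of at least 0.5, against 7.22% of genes, and 3 with no such filter.

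**Figure D1:**
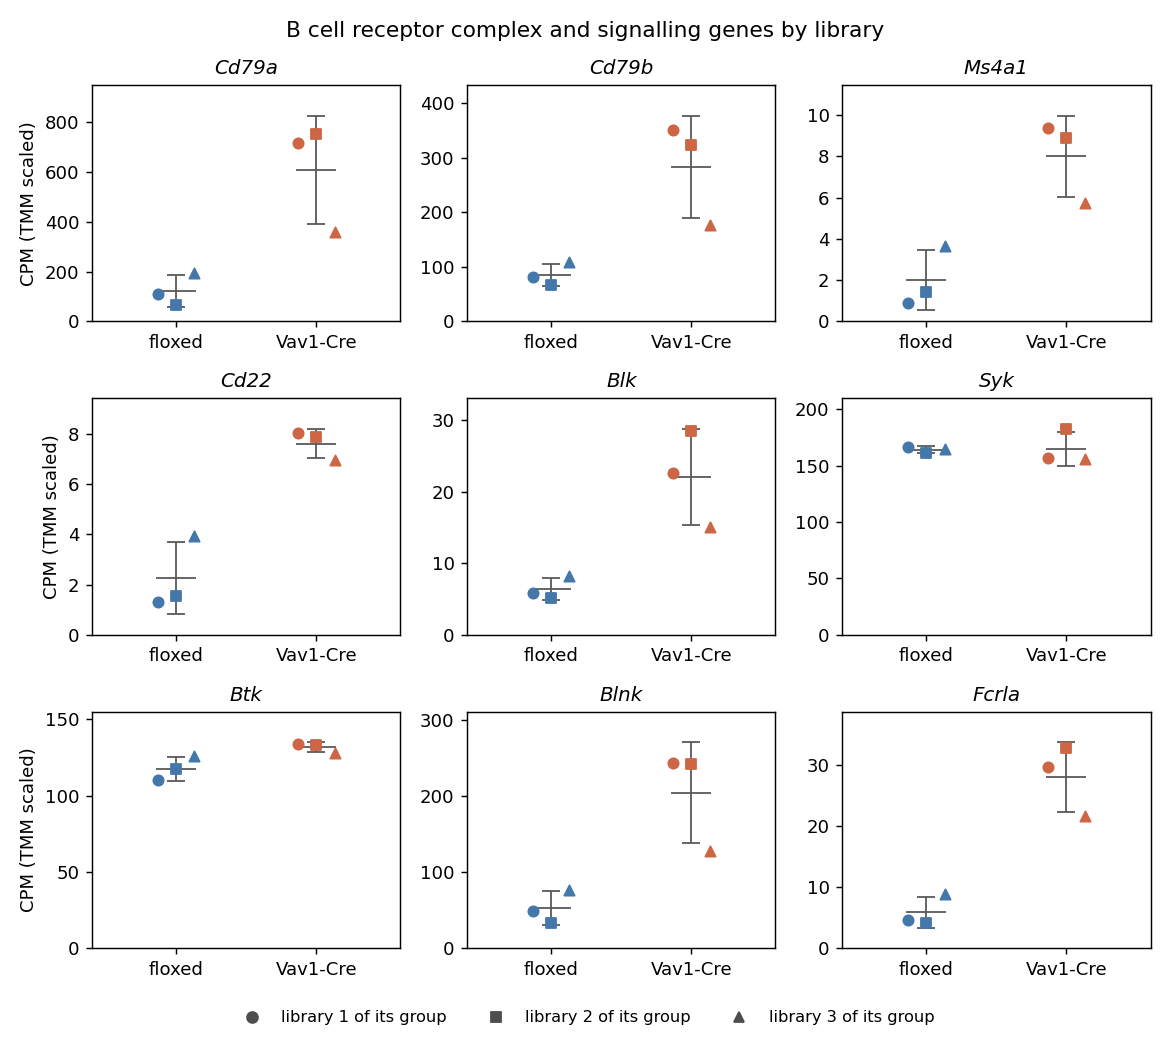
Level of each of the 9 genes in every library, in CPM after TMM scaling, on axes that start at 0. Points are libraries, with the marker shape giving the library number within its group, and the horizontal line and bars are the mean and SD of 3 libraries. All genes but Syk have every Vav1-Cre point above every floxed point, and the Btk groups lie close together.

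Cd79a and Cd79b encode the chains that carry the ITAMs. Cd79a (ENSMUSG00000003379, chromosome 7, 24897381 to 24902197, plus strand, GRCm38) measured 109.5, 64.5 and 192.5 CPM in floxed libraries 1 to 3 and 716.1, 750.5 and 358.5 CPM in Vav1-Cre libraries 1 to 3. All Vav1-Cre libraries were above all floxed libraries, and the closest were Vav1-Cre 3 and floxed 3. The fitted difference was 4.98-fold, with a log2 fold change of 2.32 (SE 0.572). The SD among floxed libraries was 53.1% of the mean. Cd79a did not pass the threshold of 0.05 (edgeR adjusted p = 0.0677), and with the robust option of edgeR off it passed (0.00853). It also passed with DESeq2 (adjusted p = 0.000288) and with limma on FPKM (0.0392), and in none of the 6 fits that left out a library.

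Cd79b (ENSMUSG00000040592, chromosome 11, 106311341 to 106314762, minus strand) measured 80.7, 67.5 and 108.2 CPM in the floxed and 351.6, 322.9 and 177.5 CPM in the Vav1-Cre libraries. The libraries stood in nearly the same order as for Cd79a, with floxed 2 lowest. Cd79b rose 3.32-fold, with a log2 fold change of 1.73 (SE 0.358, edgeR adjusted p = 0.0436). The call was lost when any library other than Vav1-Cre 3 was left out, with adjusted p from 0.0677 to 0.143. Without Vav1-Cre 3 the adjusted p was 0.00840.

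Both chains pair in the receptor, so their levels were compared per length. The ratio of Cd79a to Cd79b FPKM (fragments scaled by gene length and library size) was 1.33, 0.939 and 1.75 in the floxed libraries and 2.001, 2.28 and 1.98 in the Vav1-Cre libraries. Cd79a was therefore the larger of the pair in 5 of 6 libraries, and the ratio was higher in every Vav1-Cre library (exact two-sided permutation p = 0.1, the smallest that 3 against 3 libraries allow). This ratio was chosen after the values were seen.

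Ms4a1 and Cd22, surface proteins of B cells, were the lowest of the 9 genes. Ms4a1 (ENSMUSG00000024673, chromosome 19, 11249675 to 11266241, minus strand) had 17, 27 and 68 counts in the floxed and 145, 134 and 86 counts in the Vav1-Cre libraries, or 0.900, 1.45 and 3.66 against 9.38, 8.86 and 5.75 CPM. Groups were apart, though floxed 3 came near Vav1-Cre 3. The rise was 3.99-fold (log2 fold change 1.996, SE 0.491, edgeR adjusted p = 0.0346). It lost the threshold without floxed 2 (adjusted p = 0.129), Vav1-Cre 1 (0.115) or Vav1-Cre 2 (0.0987). Without floxed 3 the rise was 6.72-fold (adjusted p = 0.00116).

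Cd22 (ENSMUSG00000030577, chromosome 7, 30865402 to 30880342, minus strand) measured 1.32, 1.55 and 3.93 CPM from 25, 29 and 73 counts in the floxed libraries. In the Vav1-Cre libraries it measured 8.02, 7.87 and 6.96 CPM from 124, 119 and 104 counts. These Vav1-Cre values lay closer together than those of the other genes that rose, with an SD of 7.55% of the mean. Cd22 rose 3.35-fold (log2 fold change 1.74, SE 0.363, edgeR adjusted p = 0.0103), and lost the threshold without floxed 2 (0.0530) or Vav1-Cre 1 (0.0535). Without floxed 3 the rise was 5.23-fold (adjusted p = 0.000666). The annotation places an antisense gene, Gm29439, across 479 exonic bases of Cd22. Gm29439 has 0 counts, and without strand the reads of the shared bases cannot be told apart.

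Of the kinases, Blk rose, while Syk and Btk did not pass. Blk, a SRC family kinase largely of B cells (ENSMUSG00000014453, chromosome 14, 63372836 to 63417037, minus strand), measured 5.82, 5.20 and 8.18 CPM in the floxed and 22.6, 28.5 and 15.1 CPM in the Vav1-Cre libraries. The groups were well apart, and Vav1-Cre 3 was again the lowest of its group. Blk rose 3.45-fold (log2 fold change 1.78, SE 0.266, edgeR adjusted p = 0.00451), and it passed in all 6 fits that left out a library.

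Syk, which docks on phosphorylated ITAMs and also serves Fc and integrin receptors of myeloid cells, did not pass. Syk (ENSMUSG00000021457, chromosome 13, 52583173 to 52648792, plus strand) measured 166.6, 161.1 and 164.8 CPM in the floxed and 156.3, 182.3 and 155.99 CPM in the Vav1-Cre libraries. The groups overlapped, with Vav1-Cre libraries at both ends of the range. The fit gave it a log2 fold change of 0.01 (SE 0.0781) and an edgeR adjusted p of 0.969. The sign turned under 6 of 18 other settings, with upper-quartile scaling among them (-0.040).

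Btk, the TEC family kinase that acts with BLNK on phospholipase C gamma, also did not pass. Btk (ENSMUSG00000031264, chromosome X, 134542336 to 134583570, minus strand) measured 110.1, 117.3 and 125.8 CPM in the floxed and 133.7, 133.4 and 127.97 CPM in the Vav1-Cre libraries. The groups did not overlap, but floxed 3 and Vav1-Cre 3 were nearly level. The difference was 1.12-fold, or 0.16 on the log2 scale (SE 0.0735), with an edgeR adjusted p of 0.150.

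Blnk, the adaptor phosphorylated by SYK that recruits BTK, also works in macrophages. Blnk (ENSMUSG00000061132, chromosome 19, 40928927 to 40994535, minus strand) measured 49.2, 32.6 and 76.7 CPM in the floxed and 243.6, 241.98 and 128.03 CPM in the Vav1-Cre libraries. The groups were apart, with the same libraries highest and lowest as for Cd79a in the floxed group. The difference was 3.87-fold (log2 fold change 1.95, SE 0.464) and did not pass (edgeR adjusted p = 0.0620). DESeq2 gave an adjusted p of 0.000218, and none of the 6 fits that left out a library passed.

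Fcrla encodes a relative of Fc receptors that stays inside B cells and binds immunoglobulin there. Fcrla (ENSMUSG00000038421, chromosome 1, 170917576 to 170927583, minus strand) measured 4.66, 4.07 and 8.77 CPM in the floxed and 29.6, 32.7 and 21.6 CPM in the Vav1-Cre libraries. The lowest Vav1-Cre library was well above the highest floxed library. It rose 4.79-fold (log2 fold change 2.26, SE 0.337, edgeR adjusted p = 0.0102) and passed in all 6 fits that left out a library. A processed pseudogene, Gm2962, lies within the gene on the same strand, shares 0 exonic bases with it and had 150 counts over all libraries.

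The order of libraries was alike, though not the same, for the 7 genes other than Syk and Btk. Btk, with its far smaller difference, had the same order as Ms4a1 and Cd22. Among the 7 genes, floxed 3 was the highest floxed library for 7 of 7, and floxed 2 was the lowest for 5 and floxed 1 for 2. Vav1-Cre 3 was the lowest Vav1-Cre library for 7 of 7 of these genes. Their summed level was 252.2, 176.9 and 401.9 CPM in the floxed and 1381, 1393 and 713.5 CPM in the Vav1-Cre libraries. The immunoglobulin percent was also highest in floxed 3 and lowest in floxed 2 of the floxed group, and Vav1-Cre 3 was the lowest of its group. Summed pre-B cell, plasma cell and macrophage markers had the same highest and lowest libraries, and neutrophil markers did not. The order is thus not particular to the receptor genes, and the share of all tested genes with it was not computed.

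To ask whether these genes differed from Syk in their change, the log2 ratio of each to Syk was taken within each library, on log2(CPM + 0.5). The change of this ratio ran from 1.67 for Cd22 to 2.37 for Cd79a over the 7 genes other than Btk, with no overlap between groups. Syk was nearly level between the groups, so the ratios largely repeat each gene's own difference. The share of all tested genes that separate when set against Syk was not computed. Each had an exact two-sided permutation p of 0.1, the smallest possible, and 0.114 after Benjamini-Hochberg adjustment over 8 genes, so the design could not reach 0.05. For Btk the change against Syk was 0.16 (exact permutation p = 0.2).

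**Figure D2:**
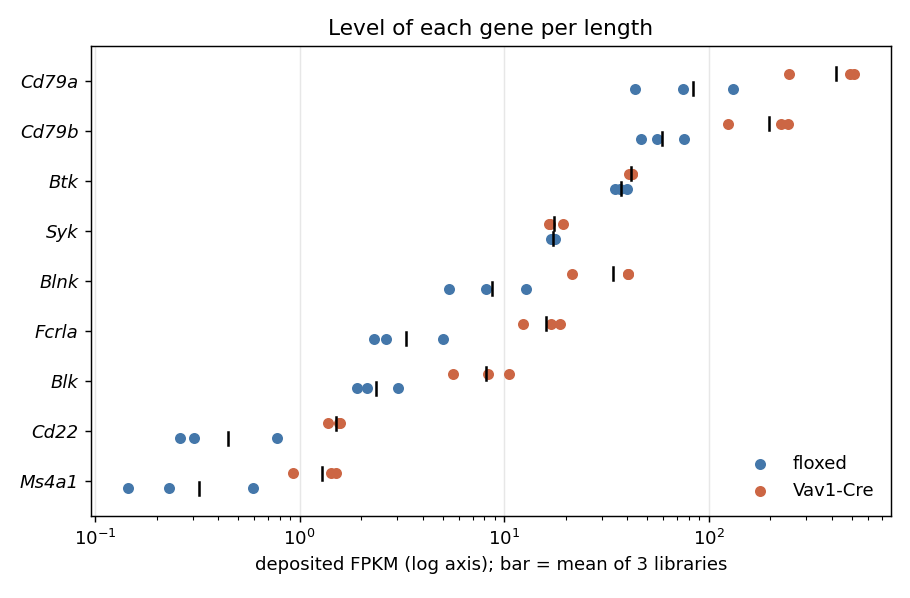
Deposited FPKM of the 9 genes in each library on a log axis, ordered by the floxed mean, with blue points for floxed and orange points for Vav1-Cre libraries and a bar at each group mean. Cd79a and Cd79b lie at the top in both groups, and Cd22 and Ms4a1 at the bottom. The Vav1-Cre points are shifted to the right for all genes but Syk, and only slightly for Btk.

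Per length, the receptor chains were the most abundant of the 9 in both groups. In floxed libraries the mean FPKM was 83.3 ± 44.7 for Cd79a and 59.3 ± 14.7 for Cd79b (SD, n = 3), and their values overlapped. Btk (37.1 ± 2.59), Syk (17.4 ± 0.378) and Blnk (8.75 ± 3.73 FPKM) followed, with no overlap between neighbours. Fcrla (3.32 ± 1.48) and Blk (2.35 ± 0.592) overlapped, as did Cd22 (0.447 ± 0.286) and Ms4a1 (0.321 ± 0.236 FPKM). Within each floxed library, Fcrla was above Blk and Cd22 above Ms4a1.

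In Vav1-Cre libraries the order changed at 1 place. Cd79a had 416.2 ± 148 and Cd79b 197.8 ± 64.7 FPKM (SD, n = 3), with no overlap. Btk (41.7 ± 0.941 FPKM) came next, and Blnk (34.0 ± 10.97) now stood above Syk (17.6 ± 1.61). Syk and Fcrla (15.96 ± 3.24 FPKM) overlapped, Blk had 8.15 ± 2.47, and Cd22 (1.51 ± 0.111) and Ms4a1 (1.29 ± 0.314 FPKM) again overlapped. Within each Vav1-Cre library, Cd22 was above Ms4a1. Cd79a FPKM was thus far above that of Ms4a1 and Cd22 in both groups.

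Promoters of 6 of the 9 genes are in the RefSeq table (GRCm38.p6), each 250 bases before to 50 bases after a gene start, with 7 entries because Syk has a pair of starts. They are shown because the groups did not overlap for 8 of the 9 genes and overlapped for Syk. Both strands were searched for CAGGTG, the E-box bound by E2A proteins, for the octamer ATGCAAAT bound by OCT factors, and for CCCNNGGG, the core of EBF sites. In the whole promoters below, with lower case for other bases, capitals mark the E-box and, for Blnk, also the octamer on the other strand. The matches do not overlap each other.
Cd79a, chr7:24897247-24897546, plus strand: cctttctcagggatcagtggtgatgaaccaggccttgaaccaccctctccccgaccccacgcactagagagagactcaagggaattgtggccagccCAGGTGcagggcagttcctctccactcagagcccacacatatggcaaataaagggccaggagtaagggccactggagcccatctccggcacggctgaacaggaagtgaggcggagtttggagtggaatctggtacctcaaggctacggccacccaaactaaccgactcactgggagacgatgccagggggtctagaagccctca
Blnk, chr19:40994172-40994471, minus strand: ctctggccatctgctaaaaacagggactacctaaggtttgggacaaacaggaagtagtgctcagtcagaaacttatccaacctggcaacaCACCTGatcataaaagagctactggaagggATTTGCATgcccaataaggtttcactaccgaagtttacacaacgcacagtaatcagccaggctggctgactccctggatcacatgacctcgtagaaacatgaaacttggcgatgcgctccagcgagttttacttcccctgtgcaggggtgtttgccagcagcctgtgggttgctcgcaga

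An E-box occurred in the promoters of Cd79a, Cd22, Blnk and Fcrla and in both promoters of Syk, and not in that of Btk. Of all 32851 promoters in the table, 20.2% hold one. The windows below show the E-box in capitals, read along the gene. They place it 154 bases before the RefSeq start in Cd79a, 160 in Blnk, 69 in Fcrla and 245 in Cd22. In the first and the other Syk promoter it lies 200 and 144 bases before the RefSeq start. These starts differ from the ends of the gene coordinates given above, which follow GENCODE M21, for all but Fcrla. The promoters of Cd22, Syk, Btk and Blnk lie wholly within those coordinates.
Fcrla, chr1:170927635-170927664, minus strand: gagacttggccaCAGGTGtgtggaggcgag
Cd22, chr7:30879256-30879278, minus strand: ccctaCACCTGttcctggtcacc
Syk, chr13:52583225-52583254, plus strand: ggaggacgcggcCACCTGcccaggtaggag
Syk, chr13:52596726-52596755, plus strand: ctcctccactggCAGGTGtttgtttgggat

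The octamer occurred once, in Blnk, and in 1.74% of all promoters. The EBF core occurred once, in Cd22, and in 13.7% of all promoters. The short ETS core GGAA was in 96.0% of all promoters and is not marked. Cd22 and Fcrla, which rose, held an E-box, as did Cd79a, Blnk and Syk, which did not pass. Of those that did not pass, Cd79a (4.98-fold) and Blnk (3.87-fold) had every Vav1-Cre library above every floxed library. The Syk groups overlapped. Btk, which also did not pass, held none. Whether these matches have a part in the change was not tested. A match is a run of letters and not a measured binding site.

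The wider pathway was read from a list of 43 genes, of which 42 were tested. In it 16 genes rose, 4 fell and 22 did not pass, with a median log2 fold change of 0.10. Over all tested genes the shares were 10.1% higher and 7.89% lower, and 4 of 42 lies near the latter. With an offset for gene length, 16 rose and 1 fell. Of the 16, 10 passed in all 6 fits that left out a library, and of the 4 that fell only Dapp1 did. The largest log2 fold change in the list was that of Ighm.

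**Figure D3:**
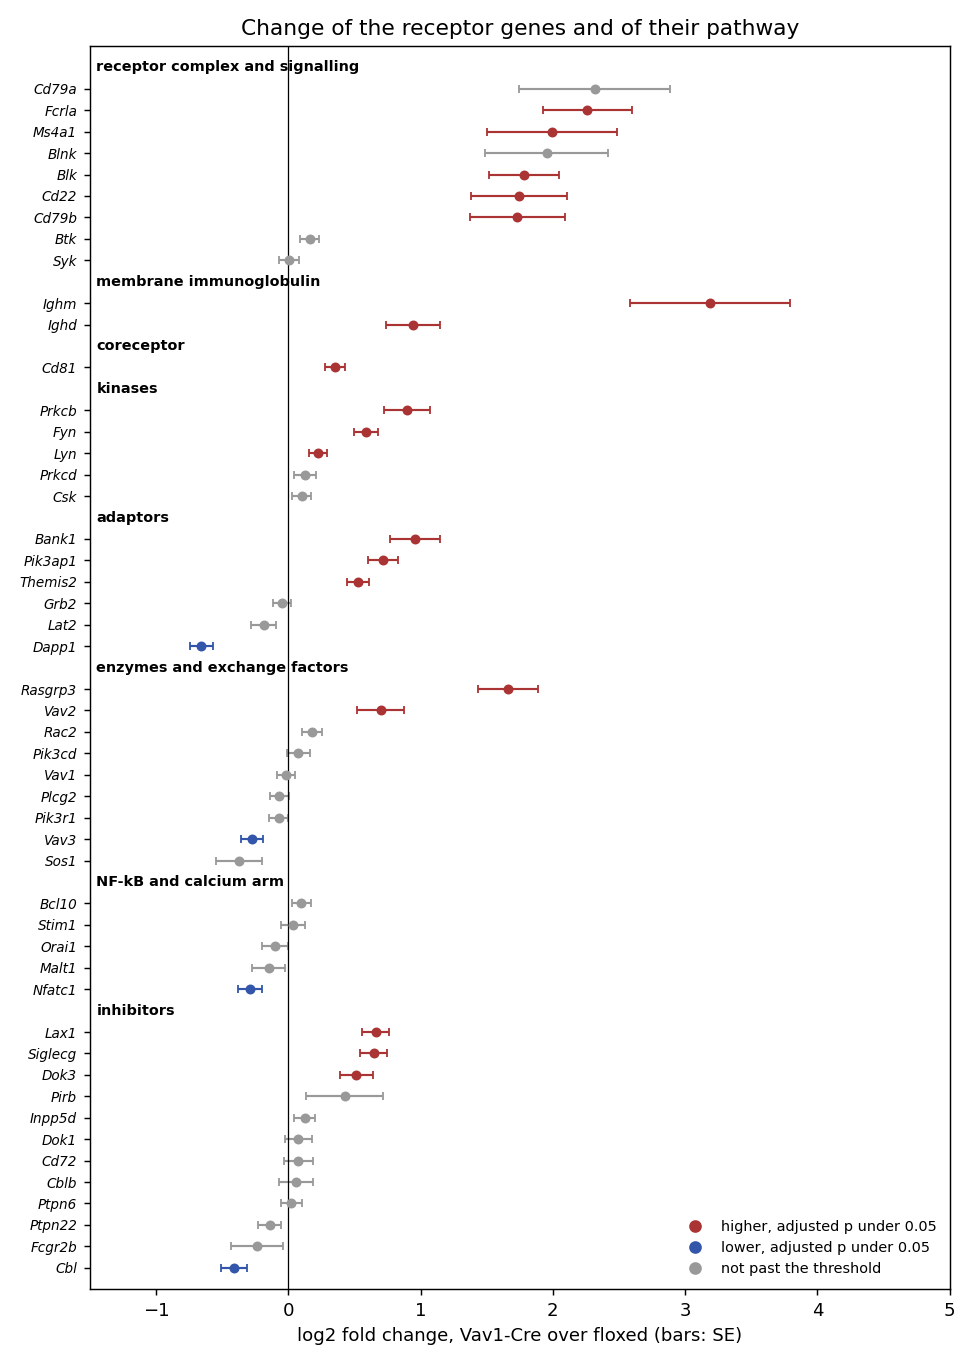
Log2 fold change of Vav1-Cre over floxed libraries with its SE for the 9 genes and tested genes of the wider pathway, grouped by role. Red marks genes higher and blue genes lower at an edgeR adjusted p under 0.05, and grey those that did not pass. Ighm lies with the receptor genes on the right, while Syk, Btk and most enzymes lie near 0.

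Both heavy chain genes of membrane immunoglobulin in the list rose. Ighm, the heavy chain of IgM, measured 2572, 1276 and 4542 CPM in the floxed and 26884, 31712 and 17818 CPM in the Vav1-Cre libraries. It rose 9.11-fold (edgeR adjusted p = 0.0373), a count that does not divide membrane from secreted forms, and passed only without floxed 3 among the fits that left out a library (up to 0.135). Ighd, the heavy chain of IgD on more mature B cells, measured 5.86 ± 1.61 CPM in the floxed and 11.3 ± 0.585 CPM in the Vav1-Cre libraries (SD, n = 3). The rise was 1.92-fold, with an edgeR adjusted p of 0.00818.

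Cd81, a tetraspanin protein found on many cells, rose 1.28-fold (adjusted p = 0.00828, and 0.0506 without floxed 2). Cr2, the complement receptor of mature B cells, was too low to be tested, with group means of 0.178 and 0.309 CPM.

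Kinases and adaptors changed by smaller amounts, and only an adaptor, Dapp1, fell. Rises were seen in Prkcb, the protein kinase C of the NF-kB arm (1.86-fold), Fyn (1.502-fold) and Lyn (1.17-fold), of which Lyn lost the threshold whichever library was left out (adjusted p up to 0.179). Among adaptors Bank1 (1.94-fold), Pik3ap1, which links the receptor to PI3 kinase (1.64-fold), and Themis2 (1.44-fold) rose. Dapp1, an adaptor that binds phosphoinositides, measured 242 ± 20.5 CPM in the floxed and 153.4 ± 14.4 CPM in the Vav1-Cre libraries (SD, n = 3). The fall was 1.58-fold, with an edgeR adjusted p of 0.000603. Grb2 stood at a log2 fold change of -0.045 (adjusted p = 0.684).

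Among enzymes, Rasgrp3, an activator of RAS downstream of the receptor, measured 4.39, 2.63 and 5.01 CPM in the floxed and 12.9, 14.2 and 10.9 CPM in the Vav1-Cre libraries. It rose 3.16-fold (edgeR adjusted p = 0.000628). Vav2 rose 1.62-fold and Vav3 fell 1.21-fold, and both are exchange factors for small GTPases. Vav2 lost the threshold when any library other than Vav1-Cre 3 was left out (up to 0.106), and Vav3 whichever library was left out (up to 0.127). Plcg2, the phospholipase that BTK and BLNK activate, stood at 202.8 against 193.4 CPM (log2 fold change -0.068, adjusted p = 0.544).

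In the NF-kB and calcium arm, Bcl10 (log2 fold change 0.099) and Malt1 (-0.15), which act together on the way to NF-kB, did not pass. Nfatc1, a calcium-responsive transcription factor, fell 1.22-fold and lost the threshold when any library other than Vav1-Cre 3 was left out (adjusted p up to 0.170). Of 12 inhibitors, Lax1 (1.58-fold), Siglecg, a relative of CD22 (1.56-fold), and Dok3 (1.43-fold) rose and Cbl, a ubiquitin ligase, fell 1.33-fold. Dok3 lost the threshold without floxed 1, floxed 3 or Vav1-Cre 1 (up to 0.115), and Cbl without floxed 1 or 2 or Vav1-Cre 1 or 2 (up to 0.0797). Ptpn6, the phosphatase SHP-1 recruited by CD22, stood at a log2 fold change of 0.022 (adjusted p = 0.873).

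Genes whose profile over the 6 libraries was most like that of Cd79a included genes of early B cells. Likeness was the root mean square difference of centred log2(CPM + 0.5) values, over 10072 genes with a mean of at least 5 CPM outside immunoglobulin genes. Among the 8 nearest were Vpreb3 (0.0924), Vpreb1 (0.103), Mzb1 (0.114), Vpreb2 (0.127), Igll1 (0.128), Chp2 (0.134) and Pou2af1 (0.138). Vpreb1, Vpreb2 and Igll1 encode the surrogate light chain of the pre-B receptor, and Vpreb1 and Vpreb2 are close copies whose reads may be shared. Pou2af1 encodes a coactivator of OCT factors.

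Cd79b was most like a different set, Grap (0.1001), Hpgd (0.120), Cecr2 (0.123), Cplx2 (0.133), Txndc5 (0.133), Cxcl9 (0.141), Asb2 (0.144) and Sdc4 (0.148). Neither of the chains was among the 8 nearest genes of the other. With 6 libraries in 2 groups, a small difference describes these libraries and nothing further.

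**Figure D4:**
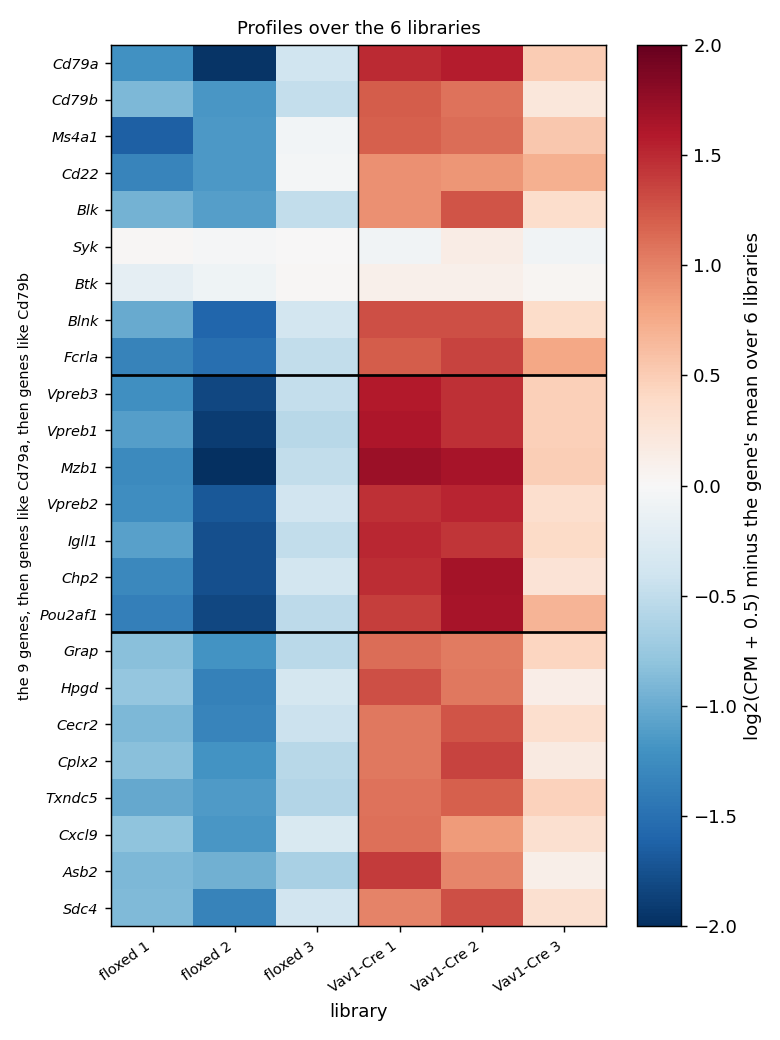
Centred log2(CPM + 0.5) of the 9 genes, genes nearest to Cd79a and to Cd79b (rows) in the 6 libraries (columns), blue below and red above each gene's own mean. The dark blue cells of floxed 2 and the pale red cells of Vav1-Cre 3 recur in most rows, and the rows of Syk and Btk are nearly white.

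Marker lists of the B lineage and of other cells are given beside the receptor genes. Their counts stand against 10.1% of all tested genes called higher and 7.89% called lower. In the B cell list, 8 of 15 rose and 7 did not pass, with a summed level of 458.8 to 652.3 CPM in the floxed and 919.8 to 1418 CPM in the Vav1-Cre libraries. The list shares Cr2, Cd72, Bank1 and a further gene with the pathway list. Of 7 pre-B cell markers none passed (median log2 fold change 2.22), with sums of 789.6 to 1466 and 1855 to 3327 CPM. Of 9 plasma cell markers 6 rose, with sums of 309.7 to 884.3 and 2073 to 4693 CPM.

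Markers of several other cell types rose as well, beside shares over all tested genes of 10.1% higher and 7.89% lower. Macrophage markers rose in 7 of 13, with sums of 304.1 to 619.4 CPM in the floxed and 1319 to 2744 CPM in the Vav1-Cre libraries. Plasmacytoid dendritic cell markers rose in 6 and fell in 1 of 9 tested, with sums of 467.6 to 546.5 and 660.9 to 803.8 CPM. T and NK cell markers rose in 11 and fell in 1 of 13, though their sums of 246.3 to 249.3 and 217.8 to 262.95 CPM overlapped. Neutrophil markers (0 of 9 called, sums of 16858 to 28306 and 12735 to 33517 CPM) and mast cell and basophil markers (0 of 6 called) overlapped too, and 1 of 6 erythroid markers rose. No marker list had a gene at 0 in all libraries. The part that any of these cells has in the levels of the 9 genes was not tested.

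**Figure D5:**
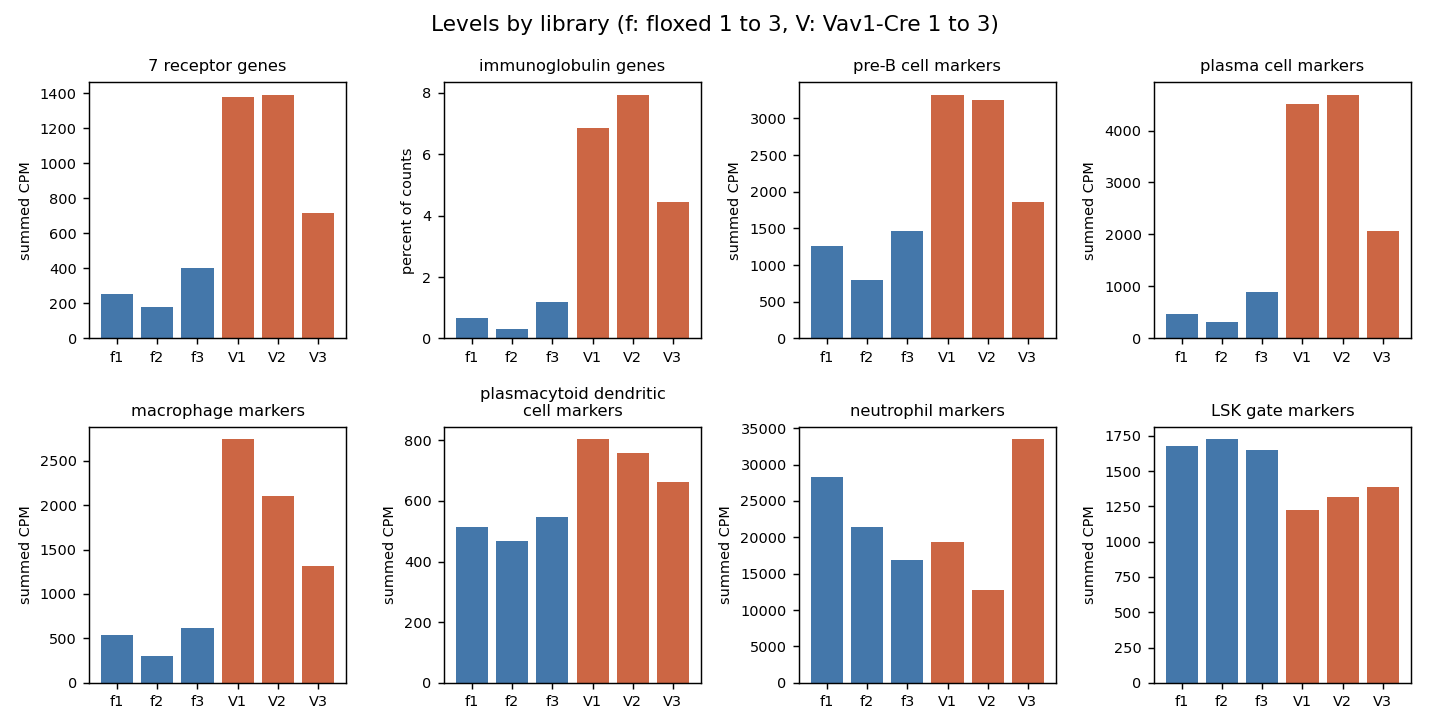
Summed CPM of the 7 receptor genes other than Syk and Btk and of marker lists, and percent of counts from immunoglobulin genes, in each library, with floxed libraries in blue and Vav1-Cre libraries in orange. The receptor genes, immunoglobulin, pre-B cell, plasma cell and macrophage panels share high Vav1-Cre bars with Vav1-Cre 3 the shortest of them, while the neutrophil panel is highest in Vav1-Cre 3.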

How the data were processed

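RNA was measured in 6 libraries, 3 per group, grouped by the genotype in the labels. For each Ensembl gene the authors deposited counts of reads, in whole numbers, beside FPKM, per the file headers. The submitters' processing notes name Bowtie and mm8. Which counting tool, strand setting and annotation were used is not given in sources used here. Of 54532 identifiers 54409 matched a symbol, and unmatched ones held at most 0.0475% of counts. FPKM values imply GENCODE M21 exon lengths (GRCm38) for 94.4% to 94.6% of genes with over 200 counts, so GRCm38 coordinates are given and none of mm8. Deposited FPKM are already scaled between libraries by median-ratio size factors.

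The main test was edgeR (4.0.16, R 4.3.3) with quasi-likelihood fits (TMM, minimum count 10, robust option, Benjamini-Hochberg over all tested genes, threshold 0.05). Alternatives were DESeq2 1.42.0, limma 3.58.1 (voom, and log2 FPKM with a pseudocount of 1 or 0.1, mean FPKM of at least 0.5 or no filter), other scalings and filters, an offset for gene length, removal of immunoglobulin genes, and leaving out each library. Exact permutation tests used SciPy 1.17.1. The scripts were tested on simulated data. No replicate pair agreed within sampling noise (chi-square per gene at least 12.0). Precision covers counting error and the spread of 3 libraries.

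The members and lists were chosen with earlier results of these data known. Genes named were the 9 members, the pathway genes that passed and a few others, and those among the 8 genes nearest in profile to Cd79a and to Cd79b. Some genes of these lists are counted but not reported here by name. Protein sequences were not used here, so a planned search for tyrosine motifs was not run.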

Additional observations from a re-analysis of the deposited data

How the results depend on the processing

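Over 18 other settings the 9 genes gave 162 log2 fold changes, of which 133 kept direction and side of the threshold, 13 lost the threshold, 10 gained it and 6 changed sign, all 6 of them Syk. Syk stood at -0.040 with upper-quartile scaling, -0.014 without a count filter, -0.0060 with a mean count of at least 50, and between -0.072 and 0.045 when a library was left out. Cd79a and Blnk passed under 5 settings each: DESeq2, limma-voom, the robust option off, and log2(FPKM + 1) and log2(FPKM + 0.1) with a mean FPKM of at least 0.5. Cd79b did not pass without a count filter (adjusted p = 0.0659). On log2(FPKM + 1) with no filter 3 of the 9 genes, 8 pathway genes and 660 genes in all were called, against 5, 20 and 2621, and Ms4a1 (0.80, adjusted p = 0.0643) and Cd22 (0.81, 0.0520) did not pass. With the filter, 1581 genes were called on log2(FPKM + 1) and 1532 on log2(FPKM + 0.1). The cause was not tested. Leaving out a library gave 2 to 5 of the 9 genes, 12 to 17 pathway genes and 1218 to 3295 genes in all. Over all genes 1469 were higher and 1152 lower with TMM, and 1215 and 1430 with upper-quartile scaling. The differences from Syk kept their sign with other pseudocounts, with Btk as the reference and without each library. The ratio of Cd79a to Cd79b differed by 0.75, and by 0.55 to 0.95 without a library. No paired analysis was possible because the library numbers were given here in accession order and the labels' own numbers are not shared between the groups. Depth limits Ms4a1 and Cd22 most, with 17 to 145 and 25 to 124 counts per library.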

Other observations

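Set against immunoglobulin reads, the 7 genes other than Syk and Btk had fewer counts in every Vav1-Cre library than in every floxed library. This comparison was chosen after the values were seen. The immunoglobulin share rose strongly, so a gene that did not change, or rose less, would also give a lower ratio. The outcome thus follows from the denominator and is not particular to these genes. Syk and Btk were not set against immunoglobulin reads. Cd79a had 176.1, 239.3 and 171.7 counts per 10000 immunoglobulin counts in floxed libraries 1 to 3 and 95.7, 88.8 and 78.2 in Vav1-Cre libraries 1 to 3. Cd79b had 129.8, 250.4 and 96.6 against 47.0, 38.2 and 38.7, and Blnk had 79.1, 120.8 and 68.4 against 32.5, 28.6 and 27.9. The groups did not overlap for any of the 7 genes other than Syk and Btk. Each gave an exact two-sided permutation p of 0.1, the smallest possible, and 0.1 after adjustment over the 7. The share of all tested genes that separate on this ratio was not computed, so the count is only a description. The immunoglobulin percent itself was 9.09 times as high in the Vav1-Cre libraries (means 0.706% and 6.42%), while the fitted rise or difference of the 7 genes ran from 3.32-fold for Cd79b to 4.98-fold for Cd79a. Counts of Cd79a per 10000 immunoglobulin counts averaged 196 ± 37.8 in the floxed and 87.6 ± 8.80 in the Vav1-Cre libraries (SD, n = 3).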
